A study of Rattus norvegicus with 8 samples.

Results

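The 67 genes described here were bright on the array and read higher in each of 4 doxorubicin-perfused rat hearts than in any of 4 control hearts. Together they are 67 of 14217 genes that the array names by a single symbol. Each gene was represented by its brightest probe set (the group of array probes that reads one transcript). A gene was kept if its doxorubicin mean was 7 log2 or more, its doxorubicin minus control difference was 0.4 log2 or more, and its lowest doxorubicin array lay above its highest control array. Of 5133 genes at the level of 7 or more, 134 had the difference, and 74 of those had groups that did not overlap. Of the 74, 7 were left out by name, together with 3 other names that did not meet the limits. The genes were thus chosen by the doxorubicin minus control contrast of these same arrays, and their levels and differences are given as a description, without a test.

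The doxorubicin group held 4 isolated hearts of male Wistar rats of about 300 g, perfused for 2 h with 2 µM doxorubicin in a Langendorff set-up whose perfusate was not recirculated. The control group held 4 such hearts, perfused for the same 2 h without the drug. Each heart had its own array and is labelled a biological replicate, and both groups shared strain, sex and perfusion. An excised heart has no blood supply of its own and no nerve input, and the labels do not say which chambers were taken. Cardiomyocyte markers were bright in all hearts, with a summed linear level over 7 of 8 listed markers of 84679 to 88278 in doxorubicin and 84256 to 87211 in control hearts. In RNA from heart tissue, a change in the number of cells of a type and a change in RNA per cell cannot be told apart.

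Doxorubicin is an anthracycline, which slides between DNA base pairs, traps topoisomerase II on DNA and interferes with transcription. In the heart it is known for toxicity to muscle cells. The 67 genes come from many pathways. They include genes of the vessel wall, the matrix, the cell surface or secreted signals, and genes of white blood cells. Others belong to excitability, the cytoskeleton or heart transcription control, or encode enzymes of mitochondria, nucleotide synthesis and the secretory pathway. Their grouping below was made by hand after the genes were known.

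Most differences were under 1.5-fold. They ran from 0.40 to 1.36 log2, or 1.32-fold to 2.57-fold, with a median of 0.49 log2 (1.41-fold), beside a median of 0.0063 log2 over all 14217 genes. One gene, Gramd2b, was past 2-fold, 19 were at 1.5-fold or more, and 35 lay under 0.5 log2. Doxorubicin means ran from 7.01 to 11.22 log2 and control means from 6.19 to 10.76 log2. The step between the lowest doxorubicin and the highest control heart was 0.15 log2 in the median, under 0.1 in 20 genes and 0.4 or more in 7. Over all genes, 5.75% had every doxorubicin array above every control array and 4.69% the reverse. In limma, 38 of the 67 were higher at an adjusted p under 0.05 and 29 were not called, beside 0.802% of all genes called higher, 2.17% called lower and 2.97% called in either direction. Both counts follow from the way the genes were chosen. Leaving out control 1, 2, 3 or 4 gave 30, 43, 19 or 27 called, and leaving out doxorubicin 1, 2, 3 or 4 gave 16, 24, 21 or 26.

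**Figure D1:**
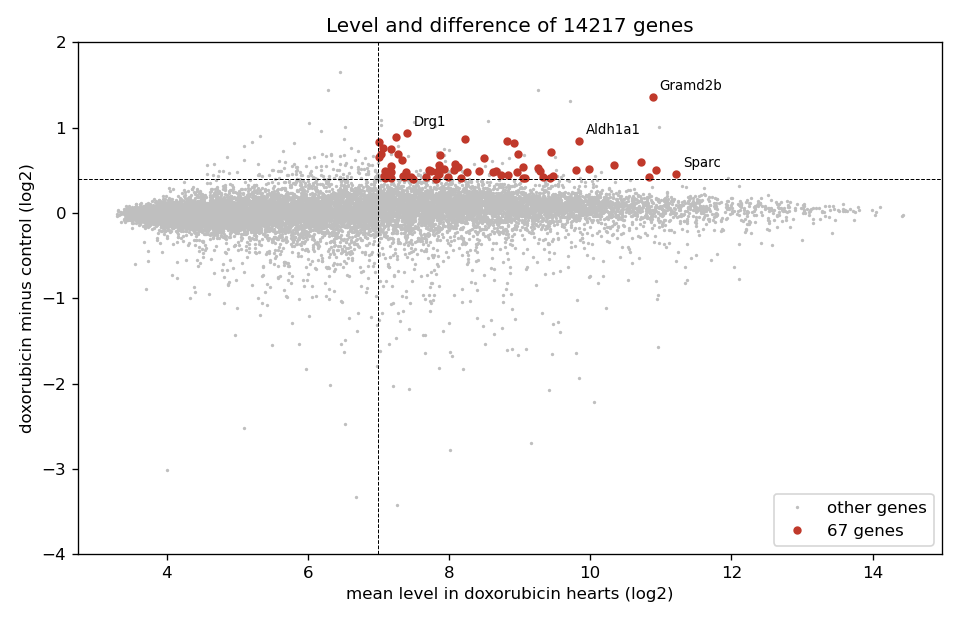
Mean level in doxorubicin hearts (log2, x axis) against the doxorubicin minus control difference (log2, y axis), with the 67 genes in red, other genes in grey and dashed lines at 7 and 0.4. Grey points past the lines overlapped between groups or were left out by name, points outside -4 to 2 are not drawn, and Gramd2b stands highest of the 67 at 1.36.

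Control 2 stood apart from the other control hearts over these genes. It was the highest of the 4 control hearts in 41 of the 67, against 8, 5 and 13 for controls 1, 3 and 4. Of all 5133 bright genes it was highest in 38.4%. Among doxorubicin hearts, doxorubicin 4 was the highest in 26 of the 67, against 20, 13 and 8 for doxorubicin 1, 2 and 3. It was also the lowest in 18, and of all bright genes it was highest in 22.9%. Measured from the mean of the control hearts, the median of the 67 genes was 0.53, 0.49, 0.48 and 0.54 log2 in doxorubicin hearts 1 to 4, against -0.09, 0.16, -0.0007 and -0.04 log2 in control hearts 1 to 4. In 14 of the 67 genes, control 2 lay nearer to the doxorubicin mean than to its own group's mean. Without control 2 the same limits were met by 126 genes, 64 of the 67 among them, and without doxorubicin 3 by 116 genes, 63 of the 67 among them. Spread over the 67 genes was wider among control hearts. The median standard deviation (SD, n = 4) was 0.13 log2 in doxorubicin and 0.20 log2 in control hearts. Of the 67 genes, 46 varied more in control hearts. The choice of genes bears on the spread of both groups, and no spread over all genes is set beside these values.

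**Figure D2:**
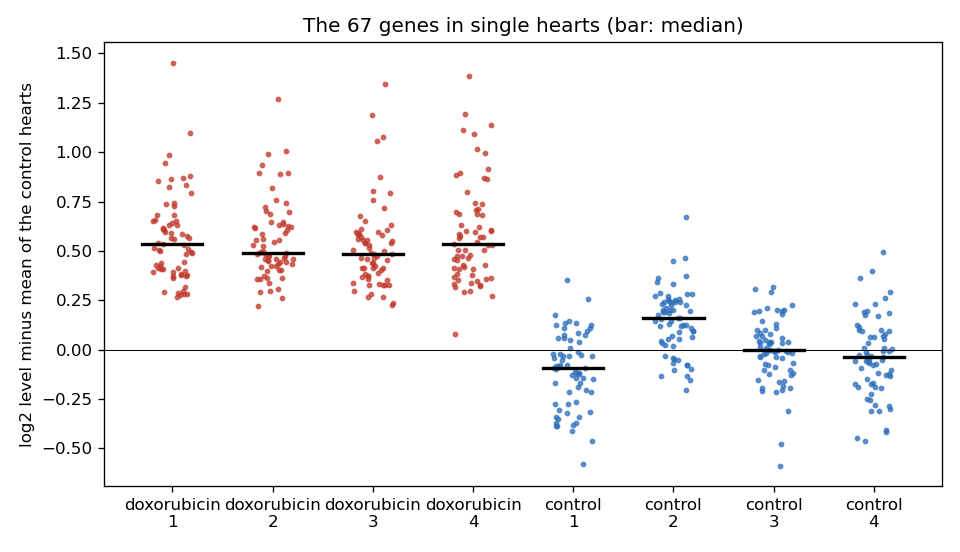
Log2 level minus the mean of the control hearts (y axis) for each of the 67 genes (points) in each heart (x axis), with the median as a bar. The medians of doxorubicin hearts lie between 0.48 and 0.54, and control 2 lies above the other control hearts at 0.16.

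The arrays also differed in a measure that the choice of genes did not use. The hybridization control level, the mean of 18 probe sets that read bacterial and phage transcripts added to each labelled sample, was 10.13, 9.99, 9.97 and 9.97 log2 on doxorubicin arrays 1 to 4, against 10.27, 10.21, 10.57 and 10.23 log2 on control arrays 1 to 4. All doxorubicin arrays read lower than all control arrays, by 0.30 log2 in the mean (difference -0.30, exact two-sided permutation p = 0.0286, the smallest that 4 against 4 arrays allow). With that level as a covariate in limma, the median of the 67 differences was 0.54 and 49 stayed at 0.4 or more. Of the 67 differences, 33 were larger and 34 smaller than without it. The lowest were Scn4b at 0.01, Fahd1 at 0.10 and Klf15 at 0.13. The highest were Aldh1a1 at 1.08, Spg7 at 1.03 and Qsox1 at 1.01. In that fit 1 of the 67 was called higher, against 38 without the covariate, beside 3 (0.0211%) of all 14217 genes, and the choice of genes bears on this count too. Spg7, the member called, had a larger difference but a higher limma adjusted p with the covariate (0.0268) than without it (0.012). The hybridization level separates the groups completely, so this fit loses precision and cannot tell that level apart from the drug. The part of the hybridization step in the 67 differences was not tested.

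Start-site sequence was a property that the choice of genes did not use. RefSeq (build GRCr8) gave a window of 300 bases, 250 before and 50 after the gene start, for 53 of the 67 genes. Not matched were Alg11, Car2, Erlin2, Gata5, Gngt2, Gpd1, Gramd2b, Mapt, Nfat5, Pdp2, Rac2, Ramp2, Tmem64 and Zcchc24. In all, 10 motifs were searched on both strands, with shares of the first-listed window per gene. GC boxes (GGGCGG) were in 37 of 53 windows (69.8%), beside 65.4% of windows of bright genes and 34.9% of all 27457 windows. CCAAT was in 37.7%, beside 38.5% of bright and 37.7% of all windows, and the E-box (CACGTG) in 7.55%, beside 9.87% and 6.65%. TATAAA was in 3 windows (5.66%), beside 7.15% and 14.3%. TGACCT, a single nuclear receptor repeat, was in 9.43%, beside 11.9% and 15.7%. The ETS site CCGGAAGT was in 3.77%, beside 9.27% and 4.01%, and the palindromic NRF1 site in 1.89%, beside 2.33% and 0.932%. Neither the AP-1 site (TGANTCA, 4.66% and 7.33%) nor the cAMP response element (TGACGTCA, 3.48% and 1.91%) was in any of the 53, where the exact 95% upper limit is 6.72%. One form of the MEF2 site, which overlaps TATAAA on one of its strands, was in 2 of 53 windows (3.77%), beside 0.231% and 0.146%. Its exact 95% interval was 0.46% to 13.0%. The 2 windows, those of Aqp1 and LOC100912041, are also 2 of the 3 that hold TATAAA. GC content of the windows was 65.0% in the median for the 53 genes and 61.7% for bright genes.

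Windows of 6 genes are shown, because they belong to a chemokine, a peptide ligand, a water channel, a long noncoding RNA and 2 heart muscle genes whose values are given below. They are printed from 5′ to 3′ on the gene's strand from RefSeq, build GRCr8, with every match to the 10 motifs on either strand in capitals.
Cxcl12, chr4:152060531-152060830, plus strand: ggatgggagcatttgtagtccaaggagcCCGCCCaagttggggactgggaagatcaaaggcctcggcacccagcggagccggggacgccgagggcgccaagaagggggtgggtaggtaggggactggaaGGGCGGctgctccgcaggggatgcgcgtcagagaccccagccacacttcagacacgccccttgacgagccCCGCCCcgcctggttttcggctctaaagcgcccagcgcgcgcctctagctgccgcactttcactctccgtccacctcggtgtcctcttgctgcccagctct
Apln, chrX:132091197-132091496, minus strand: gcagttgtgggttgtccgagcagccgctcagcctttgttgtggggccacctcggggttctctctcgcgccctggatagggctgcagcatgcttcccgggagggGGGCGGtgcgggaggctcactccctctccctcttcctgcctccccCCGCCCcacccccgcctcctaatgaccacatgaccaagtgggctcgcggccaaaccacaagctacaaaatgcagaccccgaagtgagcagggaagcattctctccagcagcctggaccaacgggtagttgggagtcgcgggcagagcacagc
Aqp1, chr4:85812534-85812833, plus strand: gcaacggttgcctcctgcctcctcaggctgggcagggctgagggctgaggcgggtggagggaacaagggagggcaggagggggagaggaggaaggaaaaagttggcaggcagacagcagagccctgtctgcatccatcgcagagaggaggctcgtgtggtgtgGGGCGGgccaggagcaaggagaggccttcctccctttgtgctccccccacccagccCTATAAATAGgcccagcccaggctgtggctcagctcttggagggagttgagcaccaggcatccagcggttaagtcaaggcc
LOC100912041, chr1:215048085-215048384, plus strand: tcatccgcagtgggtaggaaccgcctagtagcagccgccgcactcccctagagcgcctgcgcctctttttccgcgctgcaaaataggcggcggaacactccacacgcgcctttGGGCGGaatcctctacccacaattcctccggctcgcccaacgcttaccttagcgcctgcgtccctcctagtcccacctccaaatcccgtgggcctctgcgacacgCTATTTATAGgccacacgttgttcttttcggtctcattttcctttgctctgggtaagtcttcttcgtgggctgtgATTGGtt
Hhatl, chr8:130331460-130331759, minus strand: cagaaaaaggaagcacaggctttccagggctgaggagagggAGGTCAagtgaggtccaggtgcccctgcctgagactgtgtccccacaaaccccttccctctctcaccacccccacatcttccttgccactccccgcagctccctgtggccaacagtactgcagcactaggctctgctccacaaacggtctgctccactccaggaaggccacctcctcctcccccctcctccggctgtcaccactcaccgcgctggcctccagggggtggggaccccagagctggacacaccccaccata
Klf15, chr4:124522765-124523064, plus strand: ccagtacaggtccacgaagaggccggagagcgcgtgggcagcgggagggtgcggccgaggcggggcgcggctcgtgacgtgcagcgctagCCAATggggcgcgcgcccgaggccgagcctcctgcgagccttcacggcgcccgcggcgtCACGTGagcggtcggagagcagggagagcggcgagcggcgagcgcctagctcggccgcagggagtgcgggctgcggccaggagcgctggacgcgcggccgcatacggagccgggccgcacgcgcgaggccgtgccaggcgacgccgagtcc
Cxcl12 and Apln hold GC boxes alone among the motifs. Aqp1 and LOC100912041 hold a GC box each and share the MEF2 form, a short way before the start, and LOC100912041 also holds ATTGG, the other strand of CCAAT. Klf15 holds a CCAAT box and an E-box, and Hhatl holds AGGTCA, the other strand of TGACCT. A match is a run of letters and not a shown binding site.

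Genes of the vessel wall, the matrix, the cell surface or secreted signals, a grouping made by hand, made up 10 of the 67, with a median difference of 0.48. Cxcl12, the chemokine ligand of the receptor CXCR4, stood at 9.61, 9.43, 9.50 and 9.27 log2 in doxorubicin hearts 1 to 4, against 8.38, 8.69, 8.74 and 9.14 log2 in control hearts 1 to 4. All doxorubicin hearts lay above all control hearts, and control 4 came within 0.13 log2 of the lowest doxorubicin heart. The difference was 0.71 (SE 0.14, 1.64-fold), and the 2 other probe sets of Cxcl12 stood at 0.37 and 0.36. Apln, the peptide ligand of the apelin receptor on vessels and heart muscle, averaged 8.42 ± 0.09 log2 in doxorubicin and 7.93 ± 0.19 log2 in control hearts (SD, n = 4 each). Ramp2, which pairs with the calcitonin receptor-like receptor to form the adrenomedullin receptor, averaged 8.62 ± 0.06 log2 in doxorubicin and 8.14 ± 0.15 log2 in control hearts, and both genes stood about 1.40-fold higher.

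Aqp1, the water channel of capillary endothelium and red cells, gave one of the strongest array signals, which do not measure transcript amounts between genes. It stood at 11.11, 10.88, 10.97 and 10.77 log2 in doxorubicin hearts 1 to 4, against 10.35, 10.55, 10.42 and 10.39 log2 in control hearts 1 to 4. The groups were 0.22 log2 apart, the difference was 0.50 (SE 0.08), and a second, nearly as bright Aqp1 probe set stood at 0.55. Sparc, a collagen-binding matricellular protein, had the strongest array signal of all 67 and stood at 11.14, 11.32, 11.25 and 11.18 log2 in doxorubicin hearts 1 to 4, against 10.57, 10.68, 11.05 and 10.74 log2 in control hearts 1 to 4. Control 3 came within 0.08 log2 of the lowest doxorubicin heart, and the second Sparc probe set stood at 0.29, with groups that overlapped.

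The tetraspanins Cd151, a partner of laminin-binding integrins, and Tspan2 stood 1.48-fold and 1.4-fold higher. Cd151 averaged 10.34 ± 0.05 log2 in doxorubicin and 9.78 ± 0.32 log2 in control hearts, and Tspan2 8.97 ± 0.18 log2 in doxorubicin and 8.48 ± 0.33 log2 in control hearts. The second Tspan2 probe set stood at 0.41, and that of Apln at 0.26, both with groups that overlapped. Enpp4, an ectonucleotidase of the cell surface, averaged 7.39 ± 0.21 log2 in doxorubicin and 6.91 ± 0.30 log2 in control hearts. Srpx, which encodes a sushi-repeat protein, averaged 8.16 ± 0.13 log2 in doxorubicin and 7.75 ± 0.21 log2 in control hearts. Bambi, a pseudoreceptor that dampens TGF-beta and BMP signals, averaged 7.81 ± 0.08 log2 in doxorubicin and 7.41 ± 0.16 log2 in control hearts, close to the limit on the difference. Endothelial markers overlapped between the groups in their summed linear level. Over 7 of 8 listed markers it was 3181 to 3731 in doxorubicin and 3390 to 3669 in control hearts. Of the 7 differences, 4 were above 0. The endothelial transcription factor Erg was called lower in limma (-0.60, SE 0.12, adjusted p = 0.0322). Its groups did not overlap, at 7.29 to 7.80 log2 in doxorubicin and 7.89 to 8.30 log2 in control hearts. Emcn, an endothelial sialomucin, stood at 0.18 and was not called (limma adjusted p = 0.253, below 0.05 unadjusted). On a list of 13 endothelial receptors and signalling genes, Sox18, a transcription factor of vessels, was called lower (-1.53, SE 0.24, limma adjusted p = 0.00941) and 12 were not called (median -0.05). The groups of Sox18 did not overlap either. Smooth muscle and pericyte markers had a median of -0.08, with none of 7 called in limma and 3 below 0.05 unadjusted. Of these, the pericyte genes Rgs5 and Kcnj8 stood at 0.31 and 0.33 (limma adjusted p = 0.135 and 0.161) and Pdgfrb at -0.15 (limma adjusted p = 0.238). Their summed linear level was 1769 to 2519 in doxorubicin and 1582 to 2614 in control hearts. The part of vessel cell content in these 10 genes was not tested. Fibroblast markers summed to 13373 to 17793 in doxorubicin and 9887 to 16178 in control hearts, with none of 8 called in limma (0 at an unadjusted p under 0.05). Of the 8 differences, 6 were above 0, with a median of 0.14. The largest was the collagen gene Col3a1 at 0.40 (limma adjusted p = 0.414). The part of fibroblast content in these 10 genes was not tested either.

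**Figure D3:**
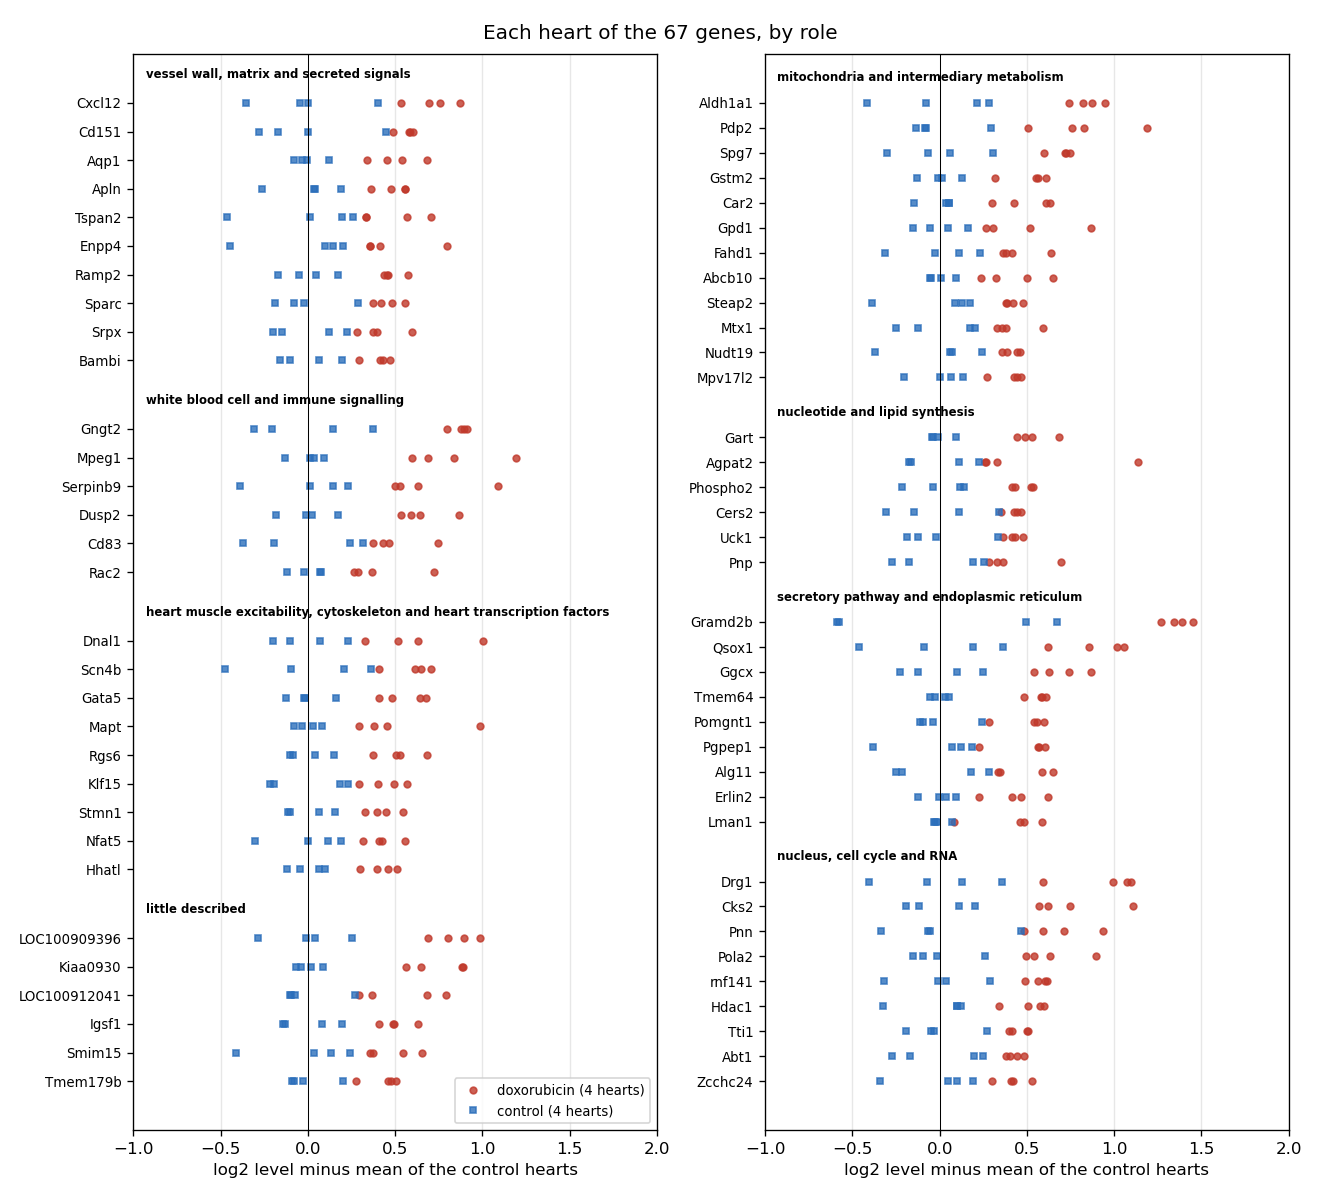
Log2 level minus the mean of the control hearts (x axis) in each doxorubicin heart (red circles) and each control heart (blue squares) for the 67 genes, arranged by role. Each row keeps a step between the groups, widest in Gramd2b (0.60) and narrowest in Lman1 (0.0092).

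White blood cell and immune signalling genes numbered 6 and had a median difference of 0.67. Gngt2, a gamma subunit of G proteins, stood at 8.23, 8.25, 8.15 and 8.27 log2 in doxorubicin hearts 1 to 4, against 7.50, 7.73, 7.15 and 7.04 log2 in control hearts 1 to 4. The 4 doxorubicin hearts agreed within 0.05 log2 (SD), while control hearts spread by 0.32, and the difference was 0.87 (SE 0.13, 1.83-fold). Mpeg1 encodes perforin-2, a pore-forming protein of macrophages, and stood at 7.02, 6.87, 6.78 and 7.38 log2 in doxorubicin hearts 1 to 4, against 6.20, 6.28, 6.22 and 6.05 log2 in control hearts 1 to 4. Here the control hearts were close together and doxorubicin 4 was the highest, and the dim second probe set of Mpeg1 (4.64 log2 in doxorubicin and 4.46 log2 in control hearts) stood at 0.17. Dusp2, a nuclear MAP kinase phosphatase of immune cells, stood at 7.21, 6.99, 6.94 and 6.88 log2 in doxorubicin hearts 1 to 4, against 6.34, 6.37, 6.16 and 6.52 log2 in control hearts 1 to 4. It was the member closest to the level limit of 7, with a mean of 7.01 log2 in doxorubicin hearts.

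Serpinb9, an inhibitor of granzyme B, averaged 7.28 ± 0.28 log2 in doxorubicin and 6.59 ± 0.27 log2 in control hearts (1.61-fold), and its second probe set stood at 0.50. Cd83, an immunoglobulin-family protein of mature dendritic cells, averaged 9.80 ± 0.16 log2 in doxorubicin and 9.30 ± 0.33 log2 in control hearts, and Rac2 7.09 ± 0.21 log2 in doxorubicin and 6.67 ± 0.09 log2 in control hearts. Macrophage markers were higher by less. All 8 of 8 differences were above 0, with a median of 0.18, and none was called in limma (1, Ptprc, at an unadjusted p under 0.05). Their summed linear level was 1858 to 2376 in doxorubicin and 1590 to 2051 in control hearts, so the groups overlapped, and the part of macrophage content in these 6 genes was not tested. Markers of T and B cells were dim, summing to 77.3 to 84.5 in doxorubicin and 71.2 to 83.1 in control hearts over 4 genes.

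A set of 9 genes belongs to excitability, the cytoskeleton or heart transcription control. Hhatl, a striated-muscle relative of hedgehog acyltransferase, stood at 10.93, 10.81, 10.88 and 10.72 log2 in doxorubicin hearts 1 to 4, against 10.30, 10.51, 10.38 and 10.48 log2 in control hearts 1 to 4. Its groups were tight and 0.20 log2 apart, with a difference of 0.42 (SE 0.07). Scn4b, a beta subunit of voltage-gated sodium channels, stood at 10.53, 10.74, 10.77 and 10.83 log2 in doxorubicin hearts 1 to 4, against 10.03, 10.33, 9.65 and 10.49 log2 in control hearts 1 to 4. Control hearts of Scn4b spread over more than the difference of 0.60, and control 4 came within 0.05 log2 of doxorubicin 1. Klf15, a Krüppel-like factor that governs cardiac metabolism and restrains growth, stood at 8.69, 8.80, 8.89 and 8.97 log2 in doxorubicin hearts 1 to 4, against 8.18, 8.63, 8.20 and 8.58 log2 in control hearts 1 to 4. Its control hearts formed a high pair (2 and 4) and a low pair (1 and 3), with 0.32 on another probe set and -0.10 on a dim one (4.75 log2 in doxorubicin and 4.85 log2 in control hearts).

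Nfat5, the transcription factor of osmotic stress, had probe sets that went opposite ways. The brightest stood at 7.88, 7.98, 8.12 and 7.97 log2 in doxorubicin hearts 1 to 4, against 7.26, 7.75, 7.56 and 7.68 log2 in control hearts 1 to 4. The other, at 7.12 log2 in doxorubicin and 7.42 log2 in control hearts, stood at -0.30 (SE 0.12), with groups that overlapped. Gata5, a zinc finger factor of the endocardium, averaged 7.18 ± 0.13 log2 in doxorubicin and 6.63 ± 0.12 log2 in control hearts (1.47-fold). Rgs6, which shortens Gi signalling from muscarinic receptors in pacemaker tissue, averaged 7.92 ± 0.13 log2 in doxorubicin and 7.40 ± 0.12 log2 in control hearts. Of the cytoskeletal genes, Mapt (the microtubule protein tau) averaged 9.26 ± 0.31 log2 in doxorubicin and 8.73 ± 0.07 log2 in control hearts, with its other probe sets at 0.51 and 0.20. Stmn1, the microtubule-destabilizing protein stathmin, averaged 9.48 ± 0.09 log2 in doxorubicin and 9.05 ± 0.13 log2 in control hearts. Dnal1, an axonemal dynein light chain, averaged 7.34 ± 0.29 log2 in doxorubicin and 6.72 ± 0.19 log2 in control hearts, with its other probe sets at 0.56 and 0.22.

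Mitochondrial and metabolic genes formed the biggest group, with 12 genes and a median difference of 0.47. Aldh1a1, which oxidizes retinal and other aldehydes, stood at 9.94, 9.81, 9.87 and 9.73 log2 in doxorubicin hearts 1 to 4, against 8.92, 9.28, 9.21 and 8.58 log2 in control hearts 1 to 4. The groups were 0.46 log2 apart and the difference was 0.84 (SE 0.14, 1.8-fold). Pdp2, a phosphatase that activates pyruvate dehydrogenase, stood at 8.92, 8.86, 9.29 and 8.60 log2 in doxorubicin hearts 1 to 4, against 8.01, 7.96, 8.02 and 8.39 log2 in control hearts 1 to 4. Control 4 lay apart from the other control hearts, towards doxorubicin 4, and a second Pdp2 probe set stood at 0.54. Spg7, a subunit of the mitochondrial inner membrane m-AAA protease, stood at 9.01, 9.03, 9.004 and 8.88 log2 in doxorubicin hearts 1 to 4, against 8.35, 8.22, 8.59 and 7.99 log2 in control hearts 1 to 4. Its doxorubicin hearts agreed within 0.07 log2 (SD), and the second Spg7 probe set stood at 0.80, above the 0.70 of the brighter one.

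The other 9 of this group stood 1.32-fold to 1.42-fold higher. Gstm2, a glutathione transferase, averaged 9.99 ± 0.13 log2 in doxorubicin and 9.48 ± 0.11 log2 in control hearts. Gpd1, the cytosolic glycerol-3-phosphate dehydrogenase, averaged 9.28 ± 0.27 log2 in doxorubicin and 8.79 ± 0.14 log2 in control hearts, and its second probe set stood at 0.45. Car2, a carbonic anhydrase, averaged 7.10 ± 0.16 log2 in doxorubicin and 6.60 ± 0.10 log2 in control hearts, with a second probe set at 0.38. Nudt19, which cleaves coenzyme A in peroxisomes, and Fahd1, a mitochondrial oxaloacetate decarboxylase, stood at 9.42 and 8.74 log2 in doxorubicin hearts, against 9.01 and 8.29 log2 in control hearts. Abcb10, a transporter of the mitochondrial inner membrane, averaged 7.37 ± 0.18 log2 in doxorubicin and 6.94 ± 0.07 log2 in control hearts. Its second probe set stood at 0.11, and the mean of both at 0.27. Mtx1, a protein of the outer membrane import machinery, averaged 7.17 ± 0.12 log2 in doxorubicin and 6.76 ± 0.22 log2 in control hearts, with a second probe set at 0.20. Mpv17l2, which takes part in mitochondrial ribosome assembly, averaged 7.49 ± 0.09 log2 in doxorubicin and 7.09 ± 0.15 log2 in control hearts and was the member nearest the limit on the difference. Steap2, a metalloreductase, averaged 7.67 ± 0.04 log2 in doxorubicin and 7.25 ± 0.26 log2 in control hearts, with a second probe set at 0.31.

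Another 6 genes serve nucleotide and lipid synthesis, with a median difference of 0.45. Gart, an enzyme of several steps of purine synthesis, averaged 8.13 ± 0.10 log2 in doxorubicin and 7.59 ± 0.06 log2 in control hearts (1.45-fold), though its second probe set stood at 0.10. Pnp, the purine nucleoside phosphorylase, averaged 9.32 ± 0.19 log2 in doxorubicin and 8.91 ± 0.26 log2 in control hearts, with a second, dim probe set at 0.07. Uck1, a uridine-cytidine kinase, averaged 7.10 ± 0.05 log2 in doxorubicin and 6.68 ± 0.23 log2 in control hearts. Cers2, a ceramide synthase, averaged 7.46 ± 0.05 log2 in doxorubicin and 7.04 ± 0.29 log2 in control hearts, and Phospho2, a phosphatase, 7.83 ± 0.06 log2 in doxorubicin and 7.35 ± 0.16 log2 in control hearts.

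Agpat2, an acyltransferase of triglyceride and phospholipid synthesis that fat cells express highly, rested on 1 heart for much of its size. It stood at 7.49, 7.49, 7.55 and 8.36 log2 in doxorubicin hearts 1 to 4, against 7.33, 7.45, 7.06 and 7.05 log2 in control hearts 1 to 4. Doxorubicin 4 was 0.81 log2 above the next heart, and without it the difference was 0.28 in place of 0.50. In the same heart, Gpd1 was also highest, and its difference was 0.36 without that heart, against 0.49 with all hearts. Adipocyte markers summed to 3782, 2627, 2978 and 4743 in doxorubicin hearts 1 to 4, against 2981, 2979, 2745 and 2541 in control hearts 1 to 4, so doxorubicin 4 was highest there as well. Fabp4, at 11.26 to 11.83 log2, made up most of each sum and was highest in doxorubicin 1. Adipoq stood at 8.04 log2 in doxorubicin 4 and at 4.52 to 6.08 log2 in the other hearts. Likewise Ucp1, Cidec and Plin1 were highest in doxorubicin 4 (9.54, 7.04 and 5.83 log2), while the dim Lep was not (4.11 log2). The part of fat tissue in the differences of Agpat2 and Gpd1 was not tested.

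The 9 genes of the secretory pathway and the endoplasmic reticulum had a median difference of 0.49. Gramd2b, a GRAM-domain protein, had the largest difference of all 67 and stood at 10.98, 10.79, 10.87 and 10.91 log2 in doxorubicin hearts 1 to 4, against 8.94, 10.19, 8.94 and 10.02 log2 in control hearts 1 to 4. Control hearts formed a low pair (1 and 3) and a high pair (2 and 4), so the difference of 1.36 (SE 0.27) averaged over control hearts 1.26 log2 apart. One other Gramd2b probe set stood at 1.41 and another at 0.50, both with groups that did not overlap. Qsox1, which forms disulfide bonds in secreted proteins, stood at 7.21, 6.98, 7.41 and 7.37 log2 in doxorubicin hearts 1 to 4, against 6.27, 6.72, 6.55 and 5.89 log2 in control hearts 1 to 4. Control 4 was lowest and control 2 highest of its control hearts, and a second Qsox1 probe set stood at 0.71. Ggcx, the vitamin K-dependent gamma-carboxylase, stood at 7.08, 6.97, 6.88 and 7.21 log2 in doxorubicin hearts 1 to 4, against 6.22, 6.60, 6.45 and 6.12 log2 in control hearts 1 to 4.

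Tmem64, a membrane protein of the endoplasmic reticulum, was one of the steadiest, averaging 7.86 ± 0.06 log2 in doxorubicin and 7.30 ± 0.05 log2 in control hearts, with other probe sets at 0.46 and 0.51. Pomgnt1, a glycosyltransferase that builds O-mannose sugars on dystroglycan, averaged 7.75 ± 0.14 log2 in doxorubicin and 7.25 ± 0.16 log2 in control hearts. Alg11, a mannosyltransferase of N-glycan assembly, averaged 7.17 ± 0.16 log2 in doxorubicin and 6.70 ± 0.27 log2 in control hearts. Erlin2, a lipid-raft protein of the endoplasmic reticulum that aids degradation there, averaged 7.37 ± 0.16 log2 in doxorubicin and 6.94 ± 0.09 log2 in control hearts. Lman1, a cargo receptor between the endoplasmic reticulum and the Golgi, averaged 9.04 ± 0.22 log2 in doxorubicin and 8.64 ± 0.05 log2 in control hearts. Its lowest doxorubicin heart (8.72) all but met its highest control heart (8.71). Pgpep1, a peptidase that removes pyroglutamate and was placed here for want of a better group, averaged 8.67 ± 0.18 log2 in doxorubicin and 8.17 ± 0.26 log2 in control hearts.

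Genes of the nucleus, the cell cycle and RNA numbered 9, with a median difference of 0.57. Drg1, a GTPase linked to translation, stood at 7.56, 7.06, 7.54 and 7.46 log2 in doxorubicin hearts 1 to 4, against 6.82, 6.59, 6.39 and 6.06 log2 in control hearts 1 to 4. The difference was 0.94 (SE 0.16, 1.92-fold), the second highest of the 67, on a single probe set. Cks2, a subunit of cyclin-dependent kinases, stood at 7.05, 6.92, 6.87 and 7.41 log2 in doxorubicin hearts 1 to 4, against 6.41, 6.50, 6.18 and 6.11 log2 in control hearts 1 to 4. As for Mpeg1, doxorubicin 4 was the highest heart. Pola2, the regulatory subunit of DNA polymerase alpha, averaged 8.49 ± 0.18 log2 in doxorubicin and 7.85 ± 0.18 log2 in control hearts (1.56-fold), and Pnn, a nuclear speckle protein of splicing, 7.87 ± 0.19 log2 in doxorubicin and 7.19 ± 0.34 log2 in control hearts. The other Pnn probe sets stood at 0.35, 0.44 and 0.13, all with groups that overlapped.

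Hdac1, a histone deacetylase, averaged 7.86 ± 0.12 log2 in doxorubicin and 7.35 ± 0.21 log2 in control hearts, and its second probe set stood at 0.24 with overlapping groups. Tti1, part of a co-chaperone of the kinases ATM and mTOR, averaged 7.86 ± 0.06 log2 in doxorubicin and 7.41 ± 0.20 log2 in control hearts. Abt1, an activator of basal transcription, averaged 7.08 ± 0.04 log2 in doxorubicin and 6.65 ± 0.26 log2 in control hearts. The zinc finger gene Zcchc24 averaged 9.08 ± 0.09 log2 in doxorubicin and 8.66 ± 0.23 log2 in control hearts, and rnf141, a RING finger gene, 8.09 ± 0.06 log2 in doxorubicin and 7.52 ± 0.25 log2 in control hearts. Both have dimmer probe sets with smaller differences, of 0.11 and 0.36 for Zcchc24 and of 0.41 and 0.15 for rnf141.

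The remaining 6 genes are little described. LOC100909396, a long noncoding RNA in RefSeq, stood at 8.97, 8.87, 8.79 and 8.67 log2 in doxorubicin hearts 1 to 4, against 8.24, 8.02, 7.97 and 7.69 log2 in control hearts 1 to 4. Its groups were 0.43 log2 apart, on a single probe set. Kiaa0930 stood at 7.07, 7.31, 6.99 and 7.31 log2 in doxorubicin hearts 1 to 4, against 6.51, 6.45, 6.39 and 6.36 log2 in control hearts 1 to 4. Its control hearts varied least of the 12 largest differences (SD 0.07), and its second probe set, near the array floor at 3.90 log2 in doxorubicin and 3.91 log2 in control hearts, stood at -0.01. LOC100912041, the other long noncoding RNA, averaged 9.04 ± 0.24 log2 in doxorubicin and 8.51 ± 0.18 log2 in control hearts, and control 2 (8.78) nearly met the lowest doxorubicin heart (8.80). Smim15, a small membrane protein gene, averaged 8.26 ± 0.14 log2 in doxorubicin and 7.77 ± 0.29 log2 in control hearts, with other probe sets at 0.41 and 0.48. Igsf1, an immunoglobulin-family membrane glycoprotein known from the pituitary, averaged 8.08 ± 0.09 log2 in doxorubicin and 7.57 ± 0.17 log2 in control hearts, with a second probe set at 0.04. Tmem179b stood at 7.19, 7.39, 7.42 and 7.38 log2 in doxorubicin hearts 1 to 4, against 6.83, 7.12, 6.89 and 6.84 log2 in control hearts 1 to 4, while its other probe sets, at 3.79 to 4.41 log2, stood at -0.03 and -0.04.

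Other probe sets of the same genes mostly gave smaller differences. They were not used to pick the genes, but they come from the same arrays and contrast and are a description too. For 31 of the 67 genes there were 43 other probe sets, and 36 genes had a single one. Of the 43, 38 stood above 0, 17 at 0.4 or more and 18 had groups that did not overlap, with a median of 0.35. The 5 at 0 or below belonged to Kiaa0930, Klf15, Nfat5 and Tmem179b. The other probe sets were dimmer, with a median level of 6.23 log2, against 7.82 log2 for the brightest probe sets of these 31 genes. With the mean of a gene's probe sets, Nfat5 stood at 0.06 and Tmem179b at 0.12.

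**Figure D4:**
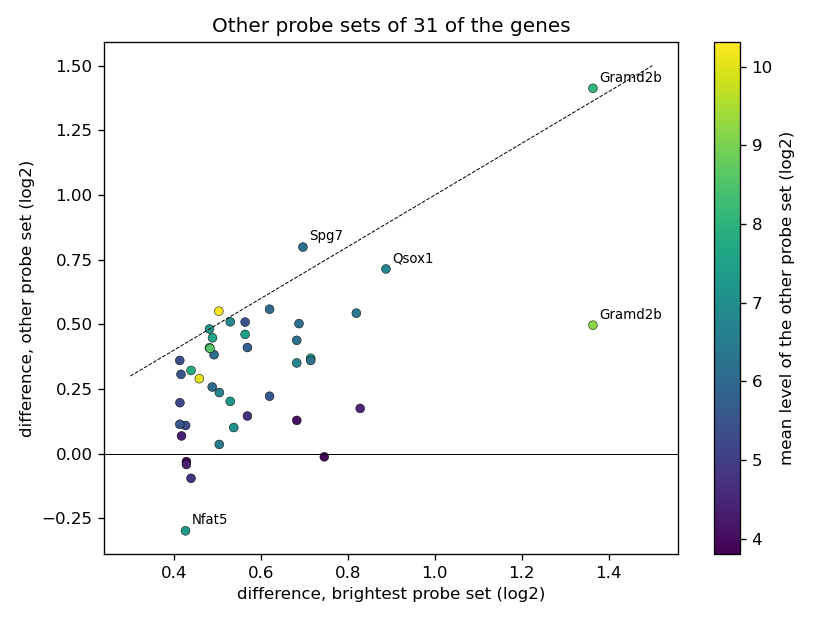
Difference of the brightest probe set (log2, x axis) against that of each other probe set of the same gene (log2, y axis), coloured by the level of the other probe set, with a dashed line of equality. Spg7, Aqp1 and one Gramd2b probe set lie above the line, and Nfat5 lies lowest at -0.30.

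The genes tended to span less of the genome than other bright genes. The RefSeq gene span, exons and introns together, was 13.0 kb in the median (middle 50% from 6.80 to 27.2 kb) over all 67. It was 22.5 kb (9.43 to 51.5 kb) over 5120 of the 5133 bright genes. For 239 bright genes that met the same limits turned round, lower in every doxorubicin heart, the median was 17.4 kb (4.88 to 57.4 kb). Spans over 100 kb were found for 2 of the 67, Aldh1a1 (152.6 kb) and Rgs6 (651.6 kb), or 2.99%, beside 11.9% of bright genes and 15.9% of the lowered ones. No test was made of these spans, which are not measurements of these hearts.

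**Figure D5:**
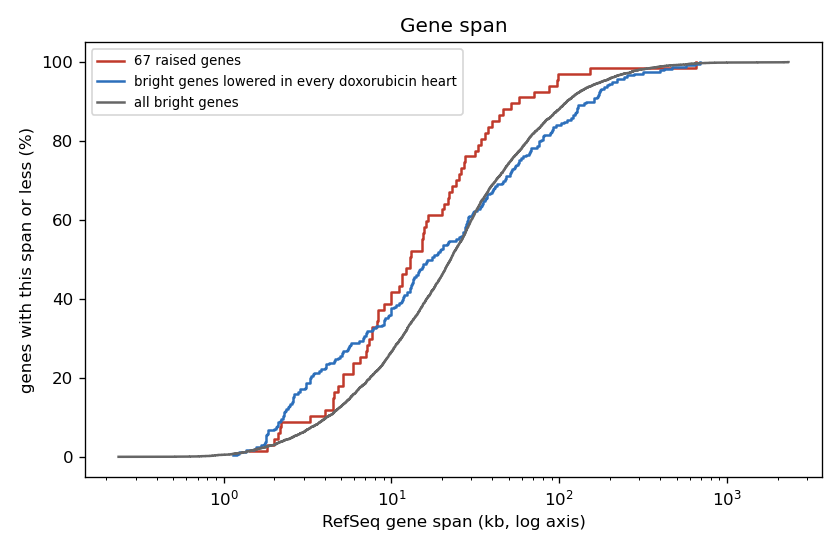
Share of genes (%, y axis) with a RefSeq gene span up to the value on the x axis (kb, log axis) for the 67 raised genes, the 239 bright genes lowered in every doxorubicin heart and all bright genes. The curve of the 67 lies left of all bright genes through the middle of the range, with medians of 13.0 and 22.5 kb.

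The 67 genes lay on 19 chromosomes, and none of their measured neighbours was among them. Next to 60 of them, 92 neighbouring protein-coding genes were measured, with a median difference of -0.02. One neighbour was called higher in limma and 4 lower, beside 0.802% and 2.17% of all genes. The one higher was Rab3a, next to Mpv17l2 (0.38). The lower ones were Klhl40 next to Hhatl (-3.33), Zswim6 next to Smim15 (-1.24), Mat2a next to Ggcx (-1.17) and Ankrd11 next to Spg7 (-0.45), all named here after their values were seen. Klhl40, a stabilizer of muscle thin filaments, stood at 6.52, 6.81, 6.62 and 6.78 log2 in doxorubicin hearts, against 10.60, 9.49, 9.91 and 10.06 log2 in control hearts. Hhatl, on the opposite strand beside it, stood 0.42 higher in the same hearts.

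Related genes were looked at in 16 gene lists, of which 195 of 215 entries were measured. Each list median, here and above, is over all measured entries of the list, with members and called genes included. In limma 6 entries were called higher (3.08%) and 10 lower (5.13%), beside 0.802% and 2.17% of all genes. Of the 6, 4 are members, so that 2 of the 191 other entries were higher (1.05%). These were Dnah7, an axonemal dynein heavy chain, and Trim54, a ubiquitin ligase of the sarcomere. Dnah7 averaged 5.32 ± 0.10 log2 in doxorubicin and 4.41 ± 0.25 log2 in control hearts (difference 0.91, SE 0.12, limma adjusted p = 0.00316), on the list of axonemal and cytoplasmic dyneins, where 7 of 8 measured genes were not called (median 0.09). It lies under the level limit, while the dynein light chain gene Dnal1 is a member. Trim54 (difference 0.39, SE 0.06, limma adjusted p = 0.0118) lay just under the limit on the difference. The other 8 measured muscle ubiquitin ligases were not called, and the list median was 0.01.

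Each of the 4 lists with a member held no other gene called higher. Of 13 genes of disulfide formation and folding, 12 besides Qsox1 were not called (median 0.07), with Pdia6, a disulfide isomerase, at 0.28 (SE 0.09, limma adjusted p = 0.198). Of 12 developmentally regulated GTPases and translation factors, 11 besides Drg1 were not called (median 0.05), and of 9 genes for sterol transfer and GRAM-domain proteins, 8 besides Gramd2b (median 0.05). Of 12 BMP and TGF-beta feedback genes (median -0.10, 4 above 0), Id4 (-0.79) and Smurf1 (-0.37) were called lower and 9 besides Bambi were not called. Among those 9, Id2 stood at 0.58 (limma adjusted p = 0.174), more than Bambi, and Tgif1 at -0.60 (limma adjusted p = 0.141). The lowest median, -0.48, was that of 11 glucocorticoid receptor targets, of which Sgk1 (-1.04), Ddit4 (-0.98) and Pdk4 (-0.78) were called lower and 8 were not called. Pdk4, also on the list of PPAR alpha targets (10 of 11 not called, median -0.15), encodes a kinase that switches off pyruvate dehydrogenase, and Pdp2, a member, a phosphatase that switches it on. Among 15 chromatin genes (median -0.11), Hdac5 (-0.91) and Kdm6b (-0.51) were called lower, beside 0.50 for the member Hdac1. Cars1 (-0.53) was called lower among 16 aminoacyl tRNA synthetases (median -0.0076). The remaining lists, apart from the endothelial one described above, had no call, and these covered matrix proteoglycans, nuclear transport, Rab GTPases and trafficking, solute carriers and arachidonate and phospholipid enzymes, with medians of 0.06, 0.02, 0.06, -0.04 and 0.0024.

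The limits cut through a continuous range. Just inside the level limit were Dusp2 (7.01), Mpeg1 (7.01) and Ggcx (7.04), and just outside it C5ar1 (6.996), Slpi (6.99) and LOC102547700 (6.94). Just inside the limit on the difference were Mpv17l2 (0.4006), Bambi (0.402) and Lman1 (0.404), and just outside it Skic3 (0.397), Gpcpd1 (0.396) and Trim54 (0.390). Just inside the rule against overlap were Lman1 (0.0092), Cers2 (0.011) and LOC100912041 (0.020), and just outside it Cd1d1 (-0.0039), Fabp5 (-0.0051) and Rbfox1 (-0.0070), the values being the lowest doxorubicin minus the highest control array.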

How the data were processed

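Each deposited value is an intensity from RMA, per the submitters' processing notes. RMA corrects background, normalizes arrays jointly and summarizes probes, which would hide a shift common to most transcripts. The software behind RMA is not given in the sources used here. Array medians were 29.9 to 31.0 and maxima 21852 to 23267, a linear scale, so log2 was taken with no offset. Arrays have no sequencing depth, and their number limits the precision. Of 31099 probe sets, 57 AFFX controls were left out. A single symbol was given for 20826 of the remaining 31042, several for 436 and none for 9780. Symbols were updated through RefSeq (GRCr8).

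The 4 doxorubicin arrays were set against the 4 control arrays with limma 3.58.1 (R 4.3.3) over all 31042 probe sets, with Benjamini-Hochberg adjustment, and called under 0.05. On simulated data for this comparison, with 200 of 31042 probe sets changed, limma recovered 93 of 100 at 2-fold and 81 of 100 at 1.5-fold, with 10 false calls. The simulated noise was independent between probe sets, unlike that of real arrays. No change under 1.5-fold was simulated, where most of the 67 differences lie. Levels are means with SD over 4 arrays, differences carry the SE of the fit, and both are log2. All 67 genes were named, with single hearts for the 12 largest differences, the 4 lowest and 4 highest control means and genes with a probe set at 0 or below. The single hearts of Agpat2 were added after its values were seen. The genes and lists were chosen with earlier results of these data known. Figures were drawn with matplotlib 3.10.9 in Python 3.11.15.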

Additional observations from a re-analysis of the deposited data

Results flagged for a closer look

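In 134 groups of 4 hearts (67 genes in doxorubicin and in control hearts), 11 hearts stood apart from the other 3 of their group by Dixon's criterion at 95%. Chance alone flags about 1 in 20 such groups. Among doxorubicin hearts, Agpat2 was high in doxorubicin 4 (8.36 log2, others 7.49 to 7.55), as was Enpp4 (7.71, others 7.27 to 7.32). Pgpep1 was low in doxorubicin 3 (8.40, others 8.74 to 8.78), and Ramp2 was high in doxorubicin 1 (8.71, others 8.58 to 8.60). Among control hearts, control 1 was low for Hdac1 (7.03, others 7.45 to 7.48), Car2 (6.46, others 6.64 to 6.66) and Steap2 (6.87, others 7.34 to 7.43), and high for Lman1 (8.71, others 8.61 to 8.62). Control 2 was high for LOC100912041 (8.78, others 8.41 to 8.44). Control 4 was high for Pdp2 (8.39, others 7.96 to 8.02) and low for Enpp4 (6.46, others 7.01 to 7.11).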

How the results depend on the processing

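The median difference of 0.49 ran from 0.46 to 0.55 under the alternatives tried. No sign of the 67 could turn when a heart was left out, because the choice of genes fixes it, and the balanced replicate block leaves each difference as it was. With the hybridization covariate the 67 ran from 0.01 to 1.08, and with the mean of a gene's probe sets from 0.06 to 1.09. The number of genes that met the limits was 34 with a level limit of 8, 146 with a difference limit of 0.3 and 32 with one of 0.5, and ran from 72 to 126 without single hearts. Without control 1, 48 of the 67 still met them. It was 55 with the mean of a gene's probe sets (47 of the 67), 86 with median centring and 55 with repeated quantile normalization (53 of the 67). The 422 genes called by limma (114 higher) were 60 with the hybridization covariate (3 higher, with 1 of the 67) and 248 to 512 without single hearts, and the cause was not tested. The covariate separates the groups and cannot be told apart from the drug. The median of the 67 without single hearts ran from 0.46 to 0.55. Same-numbered hearts had correlated deviations of 0.06, -0.04, -0.03 and -0.18, and differently numbered hearts of -0.43 to 0.31. The labels do not say whether replicate numbers pair the hearts, and these correlations cannot decide it. With the replicate block, limma called 305 genes (60 higher), 20 of the 67 among them. The hybridization control difference was -0.34 to -0.22 without single arrays, where the smallest possible exact permutation p is 0.0571. On the given strand alone, CCAAT was in 24.5% and GGGCGG in 49.1% of the 53 windows. Nothing at the spots' background can be read from this table, which carries no detection calls.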

Other observations

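Lyve1, a hyaluronan receptor of lymphatic vessels and some macrophages, is the neighbour of rnf141 in RefSeq and varied widely between single hearts. It stood at 7.97, 8.16, 7.06 and 8.51 log2 in doxorubicin hearts 1 to 4, against 6.85, 8.06, 7.44 and 6.35 log2 in control hearts 1 to 4, with groups that overlapped. The atrial peptide gene Nppa stood at 11.77, 11.28, 10.17 and 13.30 log2 in doxorubicin hearts, against 10.07, 12.37, 11.94 and 9.88 log2 in control hearts. For both genes doxorubicin 4 was the highest and doxorubicin 3 the lowest of its group, and control 2 the highest and control 4 the lowest of its group. Lyve1 and Nppa were picked with these values already in view. The summed level of 5 atrial markers was highest in the same 2 hearts, at 20404 in doxorubicin 4 and 10312 in control 2, against 1247 to 6172 in the other 6.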
